A study of Homo sapiens with 6 samples.

Results

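The genes of mitosis and the kinetochore are described here across human dermal fibroblasts that were driven towards muscle by 2 forms of MyoD. The set is a list of 51 gene symbols, taken from 23527 in the deposited count table, and each gene's value is the sum of its RefSeq transcript rows, 95 of 40710 rows in all. Polyadenylated RNA was sequenced from cultured primary fibroblasts of 1 line, in 3 groups of 2 libraries that the design text calls biological duplicates. VP64-MyoD is mouse MyoD with the activation domain VP64 joined to its N-terminus through a serine-glycine linker, and WT-MyoD is mouse MyoD without it. Both came from a Tet-ON lentivirus that also makes the red fluorescent protein dsRed-Express2, joined by a ribosome-skipping peptide. Cells of both MyoD groups were infected in the presence of polybrene, selected with puromycin, grown to confluence, given 3 µg/mL doxycycline and harvested at day 10. The untreated cells are listed as expressing no gene, and the labels do not say whether they were infected, selected or given doxycycline, or on which day they were harvested. These conditions therefore cannot be told apart from MyoD in either comparison with untreated cells.

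In mitosis a cell condenses its chromosomes, attaches them to a spindle of microtubules and divides. The kinetochore is the protein assembly on each centromere that holds the microtubules, and a checkpoint delays division until every chromosome is attached. Many of these genes are made late in the cell cycle and are silent in resting cells, so their RNA is widely used as a sign of dividing cells, while muscle cells leave the cycle as they mature. In bulk RNA, fewer dividing cells and less of these RNAs per dividing cell cannot be told apart.

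Library totals lay between 40997586 and 53804224 counts, and ribosomal RNA took 0.663% to 1.80% of them, with the lowest shares in the untreated libraries. The transgene, mouse Myod1, had 5372 and 5056 counts with VP64-MyoD, 42900 and 41736 with WT-MyoD, and 254 and 46 in untreated cells. The 9 fibroblast markers had a summed level of 33702 and 31106 CPM (counts scaled to a common library total) with VP64-MyoD. It was 29814 and 34030 CPM under WT-MyoD and 43367 and 45765 CPM in untreated cells, and no marker was near 0. Taken singly, the markers went both ways. Their log2 fold changes over untreated ran from -1.38 to 0.36 with VP64-MyoD (median -0.52) and from -1.11 to 0.66 with WT-MyoD (median -0.02). The 5 muscle markers (MYOG, DES, CKM, MYH3, ACTN2) summed to 2501 and 2156 CPM under VP64-MyoD, 244 and 227 CPM under WT-MyoD, and 3.79 and 3.84 CPM in untreated cells. Summed endothelial, leukocyte and melanocyte markers lay between 0.595 and 2.89 CPM in every library, and keratinocyte markers between 4.85 and 8.84 CPM, nearly all of it KRT10. TYR, CD3E and KRT1 had no count in any library.

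Nearly all of the mitosis genes were higher with both forms of MyoD than in untreated cells, and most were lower under VP64-MyoD than under WT-MyoD. Summed over the 51 genes, the level was 1488 and 1578 CPM under VP64-MyoD, 2184 and 2251 CPM under WT-MyoD, and 634 and 653 CPM in untreated cells. The libraries of the 3 groups did not overlap in this sum. The summed level averaged 1533 ± 63.7 CPM under VP64-MyoD, 2217 ± 47.6 CPM under WT-MyoD and 643 ± 13.3 CPM in untreated cells (SD, n = 2 each). That is 2.38-fold over untreated with VP64-MyoD and 3.45-fold with WT-MyoD. SMC4 alone made up 25.8% and 26.6% of the sum in untreated cells, against 11.8% in both VP64-MyoD libraries and 8.24% and 8.08% in the WT-MyoD libraries.

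With VP64-MyoD, 50 of 51 genes were called higher than in untreated cells and 0 lower, where 33.3% of the 15282 genes tested were called higher and 30.3% lower. A gene was called where edgeR's quasi-likelihood test gave a Benjamini-Hochberg adjusted p under 0.05 over all genes tested. The median log2 fold change of the 51 genes was 1.83, against 0.03 over all genes tested, and 47 were over 2-fold and 16 over 4-fold higher, as were 12.8% and 7.85% of all genes. With WT-MyoD, 50 of 51 genes were again called higher and 0 lower, where 26% of all genes were called higher and 22.5% lower. The median log2 fold change was 2.26, against 0.00 over all genes, and 49 were over 2-fold and 36 over 4-fold higher, as were 11.6% and 6.52% of all genes. In both comparisons the gene not called was SMC4, and both MyoD libraries stood above both untreated libraries for all 51 genes, as they did for 43.3% of all genes with VP64-MyoD and 36.4% with WT-MyoD. These comparisons share the untreated libraries.

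**Figure D1:**
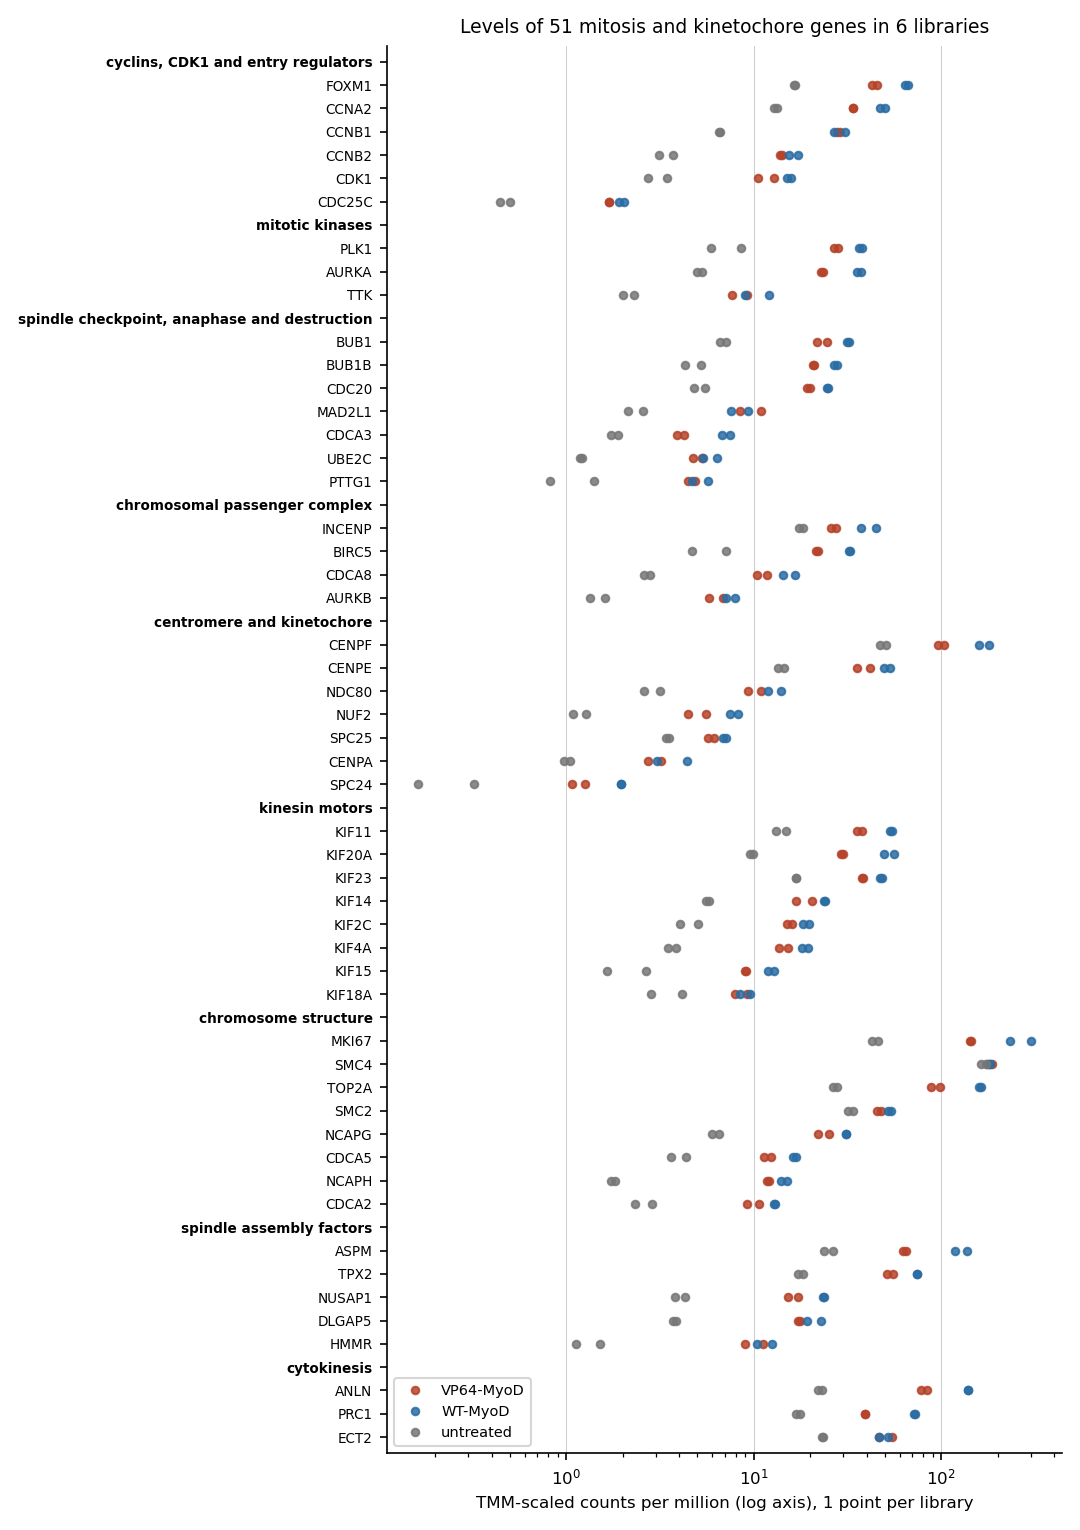
TMM-scaled CPM on a log axis, 1 point per library, for the 51 genes grouped by role, with VP64-MyoD, WT-MyoD and untreated cells in different colours. For every gene the untreated points lie to the left of the MyoD points, narrowly so for SMC4 at 163 to 186 CPM.

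The bases before the start of a gene are where the DREAM and MuvB complexes are known to hold late cell cycle genes, through the CHR element, and where the factor NF-Y binds CCAAT boxes. RefSeq windows of 250 bases before to 50 bases after the gene start were held for 44 of the 51 genes. AURKA, BIRC5, CDCA2, FOXM1, TPX2, TTK and UBE2C were not matched. The CHR letters TTTGAA, on either strand, were in 32 of the 44 windows (72.7%), against 15.4% of 27305 windows. The 27305 windows are 1 per gene symbol, expressed here or not, and so a wider set than the genes tested. CCAAT, on either strand, was in 32 of 44 windows (72.7%), against 35.7% of all, and at least 2 CCAAT matches in 19 (43.2%), against 11.3%. Both motifs were in 24 of 44 windows (54.5%), against 6.08% of all. The E-box letters CAGCTG, which MyoD is known to bind, were in 3 of 44 (6.82%), against 17.7%. The 130 bases before the start are printed for 8 genes, chosen after their windows were seen, to show both arrangements and the gene that was not called. Capitals mark TTTGAA or TTCAAA and CCAAT or ATTGG, in GRCh38.p14.
CCNB2: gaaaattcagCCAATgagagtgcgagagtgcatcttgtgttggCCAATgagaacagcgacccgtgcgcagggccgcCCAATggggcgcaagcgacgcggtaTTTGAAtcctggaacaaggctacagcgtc
CDC20: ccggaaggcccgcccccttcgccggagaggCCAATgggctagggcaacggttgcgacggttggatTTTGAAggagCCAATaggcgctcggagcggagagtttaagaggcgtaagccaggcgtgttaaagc
PLK1: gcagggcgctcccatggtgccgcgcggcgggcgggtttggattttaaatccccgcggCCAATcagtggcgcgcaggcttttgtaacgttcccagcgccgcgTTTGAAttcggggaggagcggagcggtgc
PRC1: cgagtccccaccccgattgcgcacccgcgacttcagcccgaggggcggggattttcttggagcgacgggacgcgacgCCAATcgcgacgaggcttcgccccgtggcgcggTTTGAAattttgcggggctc
MKI67: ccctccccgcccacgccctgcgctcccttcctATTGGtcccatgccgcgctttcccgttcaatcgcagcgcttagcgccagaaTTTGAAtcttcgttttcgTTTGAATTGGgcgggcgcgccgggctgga
HMMR: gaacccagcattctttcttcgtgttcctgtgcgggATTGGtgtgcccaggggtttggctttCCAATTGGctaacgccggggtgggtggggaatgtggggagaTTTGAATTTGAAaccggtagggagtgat
CCNB1: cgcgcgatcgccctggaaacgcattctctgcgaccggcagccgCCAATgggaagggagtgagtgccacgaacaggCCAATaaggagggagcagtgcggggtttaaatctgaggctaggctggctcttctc
SMC4: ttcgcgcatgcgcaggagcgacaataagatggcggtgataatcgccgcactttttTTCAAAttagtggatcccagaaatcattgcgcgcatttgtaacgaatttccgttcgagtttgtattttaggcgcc
In CCNB2, the gene of cyclin B2, CCAAT matches began 120, 87 and 54 bases before the start and the CHR match 29 bases before it, at chr15:59105016-59105145 (plus strand). CDC20, at chr1:43358851-43358980 (plus strand), has its nearer CHR match between a pair of CCAAT matches. PLK1, at chr16:23678759-23678888 (plus strand), and PRC1, at chr15:90994536-90994665 (minus strand), each show 1 CCAAT match followed by 1 CHR match. In MKI67, at chr10:128126424-128126553 (minus strand), the second CHR match overlaps an ATTGG match, and in HMMR, at chr5:163460502-163460631 (plus strand), a CCAAT and an ATTGG match overlap each other and a pair of CHR matches stand end to end. CCNB1, at chr5:69167020-69167149 (plus strand), has a pair of CCAAT matches and no TTTGAA match in its window. Only these letters were sought for the CHR element, so a window without them may still hold another form of it. SMC4, at chr3:160399520-160399649 (plus strand), has 1 CHR match on the other strand and no CCAAT match. A match is a description of the letters and not a shown binding site. The genes with a TTTGAA match had a median log2 fold change over untreated of 1.80 with VP64-MyoD and 2.26 with WT-MyoD. The 12 genes without one had 1.81 and 2.17. Since other forms of the element were not sought, this split cannot show whether the element bears on the fold changes.

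**Figure D2:**
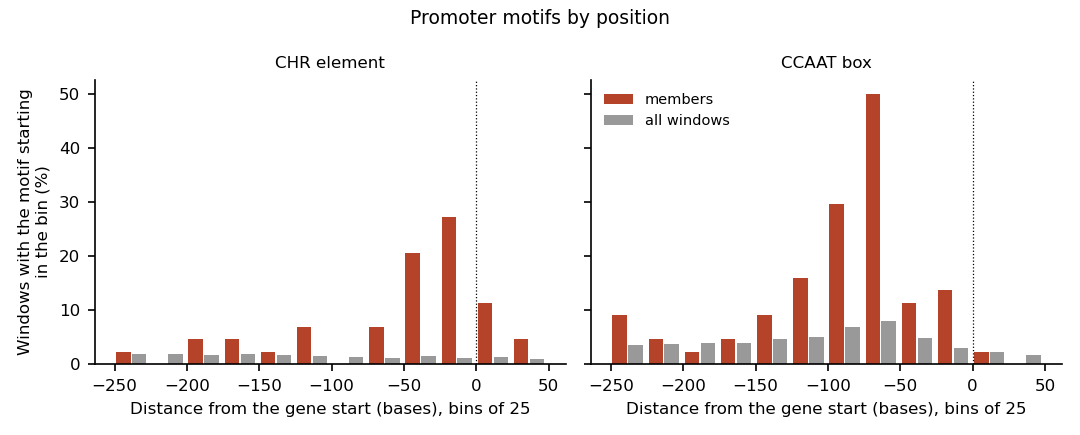
Share of promoter windows (percent) in which the CHR element or the CCAAT box begins in each bin of 25 bases, by distance from the gene start, for the 44 matched mitosis genes and for all 27305 windows. CHR matches were most frequent in the bin just before the start, in 12 of 44 genes (27.3%) against 1.13% of all windows, and CCAAT matches between 75 and 50 bases before it, in 22 of 44 (50%) against 7.87%.

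Entry into mitosis is driven by CDK1 with its cyclin partners, and all 6 genes of this group rose with both forms. FOXM1, a transcription factor of late cell cycle genes, stood at 43.0 and 45.4 CPM under VP64-MyoD, 66.5 and 64.4 CPM under WT-MyoD and 16.4 and 16.6 CPM in untreated cells. FOXM1 stood higher than in untreated cells by 1.42 (SE 0.07, edgeR adjusted p = 9.48e-11) log2 units under VP64-MyoD and 1.99 (SE 0.07, edgeR adjusted p = 1.94e-12) under WT-MyoD. CCNA2, the cyclin of S and G2 phase, stood at 33.9 and 34.1 CPM in VP64-MyoD libraries and 50.2 and 47.0 CPM in WT-MyoD libraries, against 12.8 and 13.3 CPM in untreated libraries. All 3 groups were separate for both genes, with VP64-MyoD in the middle. For CCNA2 the log2 fold change over untreated was 1.38 (SE 0.08, edgeR adjusted p = 3.43e-10) under VP64-MyoD and 1.90 (SE 0.08, edgeR adjusted p = 8.43e-12) under WT-MyoD. CCNB1, the main mitotic cyclin, had 28.8 and 27.7 CPM under VP64-MyoD, 30.6 and 26.7 CPM under WT-MyoD and 6.54 and 6.59 CPM in untreated cells, so that its MyoD groups overlapped. The other cyclin B gene, CCNB2, had 14.2 and 13.8 CPM under VP64-MyoD, 17.2 and 15.4 CPM under WT-MyoD and 3.71 and 3.11 CPM in untreated cells. CDK1, the kinase itself, had 10.5 and 12.8 CPM under VP64-MyoD, 15.8 and 15.1 CPM under WT-MyoD and 2.75 and 3.43 CPM in untreated cells, and CDC25C, a phosphatase that switches CDK1 on, had 1.69 CPM in both VP64-MyoD libraries, 2.03 and 1.91 CPM under WT-MyoD, and 0.444 and 0.503 CPM in untreated cells.

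The mitotic kinases PLK1, AURKA and TTK rose in both comparisons. PLK1, which acts at centrosomes, kinetochores and the midbody, stood at 26.8 and 28.1 CPM under VP64-MyoD, 37.7 and 36.7 CPM under WT-MyoD and 8.60 and 5.90 CPM in untreated cells. The rise of PLK1 over untreated was 1.92 (SE 0.12, edgeR adjusted p = 1.72e-09) in log2 units under VP64-MyoD and 2.35 (SE 0.12, edgeR adjusted p = 1.54e-10) under WT-MyoD. AURKA, which builds the spindle poles, stood at 22.7 and 23.4 CPM in VP64-MyoD libraries and 37.2 and 35.8 CPM in WT-MyoD libraries, against 4.97 and 5.31 CPM in untreated libraries. The 3 groups did not overlap for either kinase. AURKA rose over untreated by 2.17 (SE 0.09, edgeR adjusted p = 9.7e-12) on the log2 scale under VP64-MyoD and 2.83 (SE 0.09, edgeR adjusted p = 4.59e-13) under WT-MyoD. TTK, the kinase that starts the spindle checkpoint, had 7.66 and 9.27 CPM under VP64-MyoD, 12.0 and 8.96 CPM under WT-MyoD and 2.02 and 2.29 CPM in untreated cells, with 1 WT-MyoD library inside the range of VP64-MyoD.

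All 7 genes of the spindle checkpoint and of the protein destruction that ends it were higher with both forms. The checkpoint kinase BUB1 stood at 21.8 and 24.6 CPM under VP64-MyoD, 32.3 and 31.4 CPM under WT-MyoD and 7.11 and 6.59 CPM in untreated cells. BUB1 stood higher than in untreated cells by 1.76 (SE 0.10, edgeR adjusted p = 2.21e-10) log2 units under VP64-MyoD and 2.22 (SE 0.10, edgeR adjusted p = 1.44e-11) under WT-MyoD. BUB1B, a checkpoint protein that holds back CDC20, stood at 20.9 and 20.6 CPM in VP64-MyoD libraries and 26.7 and 27.9 CPM in WT-MyoD libraries, against 5.21 and 4.30 CPM in untreated libraries. For BUB1B the log2 fold change over untreated was 2.12 (SE 0.10, edgeR adjusted p = 6.34e-11) under VP64-MyoD and 2.51 (SE 0.10, edgeR adjusted p = 9.2e-12) under WT-MyoD. CDC20, the activator of the anaphase-promoting complex, stood at 20.0 and 19.2 CPM under VP64-MyoD, 25 and 24.5 CPM under WT-MyoD and 5.49 and 4.80 CPM in untreated cells. The groups were separate for all 3, again with VP64-MyoD between the others. The rise of CDC20 over untreated was 1.92 (SE 0.10, edgeR adjusted p = 1.21e-10) in log2 units under VP64-MyoD and 2.26 (SE 0.10, edgeR adjusted p = 1.9e-11) under WT-MyoD. MAD2L1, the checkpoint protein that binds CDC20, was at 8.44 and 10.9 CPM under VP64-MyoD, 9.27 and 7.59 CPM under WT-MyoD and 2.14 and 2.56 CPM in untreated cells, and here the MyoD groups overlapped. PTTG1 (securin, which holds separase inactive), UBE2C (the ubiquitin-conjugating enzyme of the anaphase-promoting complex) and CDCA3 (which promotes the destruction of the CDK1 inhibitor WEE1) lay at 3.92 to 5.28 CPM under VP64-MyoD, 4.70 to 7.46 CPM under WT-MyoD and 0.823 to 1.90 CPM in untreated cells.

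The chromosomal passenger complex corrects wrong attachments and consists of the kinase AURKB, the scaffold INCENP, and survivin (BIRC5) and borealin (CDCA8), which place it on chromosomes. All 4 genes rose with both forms, but INCENP by much less than its partners. INCENP stood at 27.5 and 26.0 CPM under VP64-MyoD, 37.3 and 44.7 CPM under WT-MyoD and 18.3 and 17.5 CPM in untreated cells. INCENP rose over untreated by 0.58 (SE 0.09, edgeR adjusted p = 5.38e-05) on the log2 scale under VP64-MyoD and 1.19 (SE 0.09, edgeR adjusted p = 1.84e-08) under WT-MyoD. BIRC5 stood at 21.5 and 22.1 CPM in VP64-MyoD libraries and 32.7 and 32.3 CPM in WT-MyoD libraries, against 7.15 and 4.66 CPM in untreated libraries. Both genes had 3 groups that did not overlap. BIRC5 stood higher than in untreated cells by 1.87 (SE 0.13, edgeR adjusted p = 5.92e-09) log2 units under VP64-MyoD and 2.45 (SE 0.13, edgeR adjusted p = 2.37e-10) under WT-MyoD. CDCA8 had 10.4 and 11.8 CPM under VP64-MyoD, 16.6 and 14.3 CPM under WT-MyoD and 2.58 and 2.79 CPM in untreated cells, and AURKB had 5.80 and 6.84 CPM under VP64-MyoD, 7.99 and 7.15 CPM under WT-MyoD and 1.33 and 1.60 CPM in untreated cells. Per transcript length, in TPM (levels per length scaled to a common total), INCENP was the most abundant of the 4 in untreated cells, at 15.4 ± 0.527 TPM (SD, n = 2), and BIRC5 in the MyoD groups, at 28.4 ± 0.892 TPM with VP64-MyoD and 44.3 ± 0.697 TPM with WT-MyoD (SD, n = 2 each). The highest level of the 4 was 1.86 times the lowest with VP64-MyoD, 2.00 times with WT-MyoD and 4.30 times in untreated cells.

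Among the 7 centromere and kinetochore genes, all were higher with both forms. CENPF, a large protein of the outer kinetochore, stood at 96.1 and 104 CPM under VP64-MyoD, 159 and 179.5 CPM under WT-MyoD and 47.0 and 50.9 CPM in untreated cells. For CENPF the log2 fold change over untreated was 1.03 (SE 0.08, edgeR adjusted p = 7.89e-09) under VP64-MyoD and 1.79 (SE 0.08, edgeR adjusted p = 1.22e-11) under WT-MyoD. CENPE, the kinesin that carries chromosomes to the spindle equator, stood at 35.4 and 41.7 CPM in VP64-MyoD libraries and 49.3 and 53.5 CPM in WT-MyoD libraries, against 13.5 and 14.6 CPM in untreated libraries. The rise of CENPE over untreated was 1.46 (SE 0.09, edgeR adjusted p = 1.35e-09) in log2 units under VP64-MyoD and 1.87 (SE 0.09, edgeR adjusted p = 7.29e-11) under WT-MyoD. NDC80 stood at 9.31 and 11 CPM under VP64-MyoD, 13.9 and 11.9 CPM under WT-MyoD and 3.15 and 2.61 CPM in untreated cells, and in these 3 genes no groups overlapped. NDC80 rose over untreated by 1.81 (SE 0.15, edgeR adjusted p = 2.37e-08) on the log2 scale under VP64-MyoD and 2.16 (SE 0.14, edgeR adjusted p = 2.98e-09) under WT-MyoD. CENPA, the histone H3 variant that marks centromeres, had 3.2 and 2.73 CPM under VP64-MyoD, 4.41 and 3.03 CPM under WT-MyoD and 0.969 and 1.05 CPM in untreated cells.

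NDC80, NUF2, SPC24 and SPC25 form the 4-part NDC80 complex, which grips microtubules. SPC25 had the smallest fold change of the 4 in both comparisons, and the 95% intervals of SPC24 overlapped those of NUF2 and NDC80. SPC24 stood at 1.26 and 1.08 CPM under VP64-MyoD, 1.95 and 1.96 CPM under WT-MyoD and 0.161 and 0.320 CPM in untreated cells. Halved, since every count in the table is even, its counts are only 29 and 28 with VP64-MyoD, 55 and 40 with WT-MyoD and 4 and 7 in untreated cells. The groups did not overlap. SPC24 stood higher than in untreated cells by 2.28 (SE 0.38, edgeR adjusted p = 7.59e-05) log2 units under VP64-MyoD and 3.03 (SE 0.36, edgeR adjusted p = 3.08e-06) under WT-MyoD. SPC25 stood at 6.15 and 5.69 CPM in VP64-MyoD libraries and 6.89 and 7.10 CPM in WT-MyoD libraries, against 3.39 and 3.52 CPM in untreated libraries. The groups did not overlap, but lay close together. For SPC25 the log2 fold change over untreated was 0.78 (SE 0.14, edgeR adjusted p = 0.000127) under VP64-MyoD and 1.02 (SE 0.13, edgeR adjusted p = 1.06e-05) under WT-MyoD. NUF2 had 4.46 and 5.54 CPM under VP64-MyoD, 8.28 and 7.49 CPM under WT-MyoD and 1.09 and 1.28 CPM in untreated cells. Per transcript length, SPC24 was the lowest of all 51 genes in each group, at 1.71 TPM with VP64-MyoD, 2.99 TPM with WT-MyoD and 0.342 TPM in untreated cells. SPC25 was above its partners in untreated cells at 8.38 TPM, and NDC80 in the MyoD groups at 15.9 TPM with VP64-MyoD and 21.0 TPM with WT-MyoD. SPC25 shares stretches of at least 200 bases at 95% identity or more with transcripts of other genes, CCDC88A and REV3L among them. Reads of these stretches could be misassigned, but whether the stretches lie in the counted rows of those genes was not tested.

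**Figure D3:**
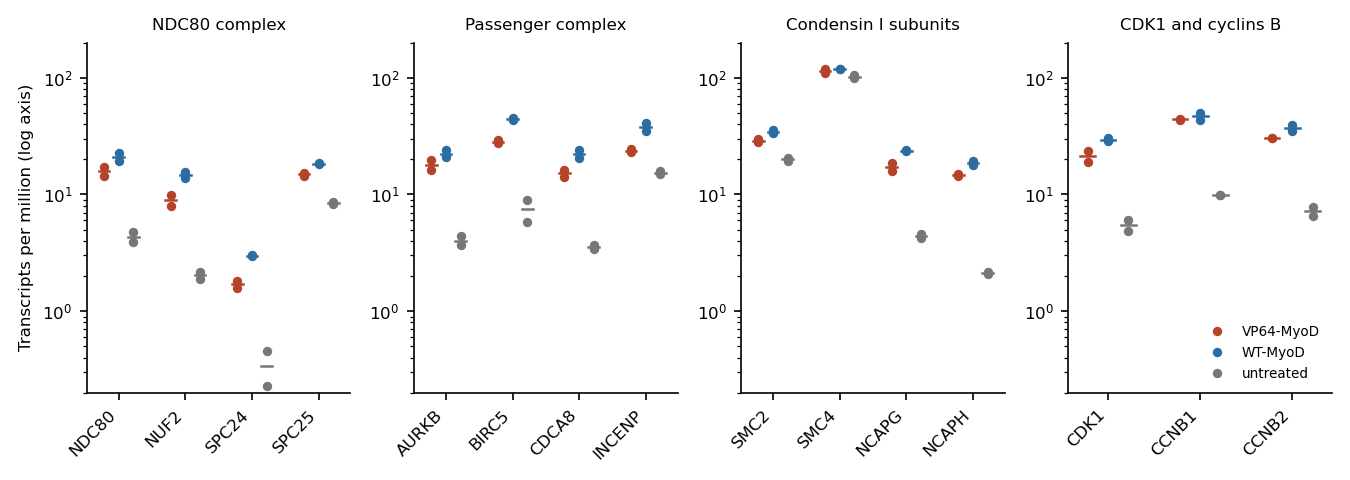
Level per transcript length (TPM) on a log axis for the members of 4 complexes, with 1 point per library and a line at the group mean, VP64-MyoD left of WT-MyoD and untreated cells. SMC4 stands at a similar height in all 3 groups, while NCAPH, of the same complex, stands at 14.6, 18.6 and 2.11 TPM with VP64-MyoD, with WT-MyoD and in untreated cells.

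All 8 kinesins, the motor proteins that move along microtubules, rose with both forms. KIF11, which pushes the spindle poles apart, stood at 35.5 and 38.0 CPM under VP64-MyoD, 53.5 and 54.4 CPM under WT-MyoD and 13.1 and 14.9 CPM in untreated cells. The rise of KIF11 over untreated was 1.4 (SE 0.08, edgeR adjusted p = 6.04e-10) in log2 units under VP64-MyoD and 1.95 (SE 0.08, edgeR adjusted p = 1.18e-11) under WT-MyoD. KIF23, a part of the centralspindlin complex of the cell's midzone, stood at 38.3 and 37.6 CPM in VP64-MyoD libraries and 47.1 and 48.5 CPM in WT-MyoD libraries, against 16.9 and 16.8 CPM in untreated libraries. KIF23 rose over untreated by 1.17 (SE 0.07, edgeR adjusted p = 1.18e-09) on the log2 scale under VP64-MyoD and 1.5 (SE 0.07, edgeR adjusted p = 6.35e-11) under WT-MyoD. KIF20A, which brings the passenger complex to the midzone, stood at 29.4 and 29.8 CPM under VP64-MyoD, 55.7 and 49.8 CPM under WT-MyoD and 9.61 and 9.97 CPM in untreated cells. No groups overlapped for these 3 genes, and for KIF20A VP64-MyoD lay further below WT-MyoD than for the others. KIF20A stood higher than in untreated cells by 1.60 (SE 0.09, edgeR adjusted p = 1.73e-10) log2 units under VP64-MyoD and 2.43 (SE 0.08, edgeR adjusted p = 1.2e-12) under WT-MyoD. The chromosome-bound motor KIF4A, the microtubule-shortening KIF2C, the midbody motor KIF14 and the spindle motor KIF15 lay at 9.01 to 20.4 CPM under VP64-MyoD, 11.9 to 24.0 CPM under WT-MyoD and 1.65 to 5.81 CPM in untreated cells. KIF18A, which damps the swings of chromosomes at the spindle equator, had 7.92 and 9.27 CPM under VP64-MyoD, 9.56 and 8.42 CPM under WT-MyoD and 4.16 and 2.84 CPM in untreated cells, and only here among the kinesins did the MyoD groups overlap.

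Of the 8 genes of chromosome structure, 7 rose with both forms, and the other was the gene that was not called. MKI67, which coats mitotic chromosomes and is the Ki-67 antigen used to count dividing cells, stood at 142 and 144 CPM under VP64-MyoD, 234 and 303 CPM under WT-MyoD and 42.8 and 46.3 CPM in untreated cells. The WT-MyoD libraries differed more from each other than those of the other groups, and the groups did not overlap. For MKI67 the log2 fold change over untreated was 1.69 (SE 0.10, edgeR adjusted p = 4.08e-10) under VP64-MyoD and 2.59 (SE 0.10, edgeR adjusted p = 3.51e-12) under WT-MyoD. TOP2A, which untangles sister DNA, stood at 87.9 and 98.1 CPM in VP64-MyoD libraries and 163 and 159 CPM in WT-MyoD libraries, against 26.4 and 27.9 CPM in untreated libraries, also without overlap. The rise of TOP2A over untreated was 1.78 (SE 0.07, edgeR adjusted p = 5.25e-12) in log2 units under VP64-MyoD and 2.57 (SE 0.07, edgeR adjusted p = 1.1e-13) under WT-MyoD. NCAPH, the subunit that closes the condensin I ring, stood at 11.7 and 12.1 CPM under VP64-MyoD, 13.9 and 15.1 CPM under WT-MyoD and 1.82 and 1.74 CPM in untreated cells. Its groups did not overlap, and its fold change was among the 3 highest of the set in both comparisons. NCAPH rose over untreated by 2.74 (SE 0.13, edgeR adjusted p = 3.57e-11) on the log2 scale under VP64-MyoD and 3.03 (SE 0.13, edgeR adjusted p = 1.22e-11) under WT-MyoD. NCAPG, another condensin I subunit, had 22 and 25.1 CPM under VP64-MyoD, 31.2 and 30.9 CPM under WT-MyoD and 5.97 and 6.54 CPM in untreated cells. CDCA5 (sororin, which protects cohesion) and CDCA2 (which recruits a phosphatase to chromosomes) lay at 9.27 to 12.3 CPM under VP64-MyoD, 12.8 to 16.9 CPM under WT-MyoD and 2.33 to 4.36 CPM in untreated cells.

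SMC2 and SMC4 are the paired ATPase arms of both condensin I and condensin II, and had the smallest fold changes over untreated of the 51 genes in both comparisons, with INCENP close above SMC2 under VP64-MyoD. SMC4 stood at 176 and 186 CPM under VP64-MyoD, 180.0 and 182 CPM under WT-MyoD and 163 and 173 CPM in untreated cells. Its VP64-MyoD and WT-MyoD libraries overlapped, and both lay only just above the untreated libraries. The log2 fold change of SMC4 over untreated was 0.11 (SE 0.06, edgeR adjusted p = 0.152) with VP64-MyoD, with a 95% interval of -0.03 to 0.24, and 0.10 (SE 0.06, edgeR adjusted p = 0.188) with WT-MyoD, with an interval of -0.03 to 0.24. In a fit of the VP64-MyoD and untreated libraries alone, SMC4 was called higher (log2 fold change 0.11, edgeR adjusted p = 0.0483). SMC2 stood at 45.2 and 47.7 CPM in VP64-MyoD libraries and 53.8 and 52.1 CPM in WT-MyoD libraries, against 31.8 and 33.9 CPM in untreated libraries, with no overlap. SMC2 stood higher than in untreated cells by 0.50 (SE 0.07, edgeR adjusted p = 1.41e-05) log2 units under VP64-MyoD and 0.69 (SE 0.07, edgeR adjusted p = 5.56e-07) under WT-MyoD. Per transcript length, SMC4 was the highest of all 51 genes in each group, at 114 TPM with VP64-MyoD, 118 TPM with WT-MyoD and 102 TPM in untreated cells, and SMC2 was the second in untreated cells at 20.0 TPM. Without SMC2 and SMC4, the summed level of the other 49 genes was 1267 and 1344 CPM under VP64-MyoD, 1950 and 2017 CPM under WT-MyoD, and 439 and 445 CPM in untreated cells. SMC4 shares 1561 exonic bases with TRIM59 and 607 with IFT80 on the opposite strand, in GENCODE 29. Summed over the 6 libraries, TRIM59 had 9318 counts and IFT80 21596, and how far their reads enter those of SMC4 was not tested.

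The spindle assembly factors rose most of the role groups with WT-MyoD (median log2 fold change 2.48 over 5 genes), and all 5 rose with both forms. ASPM, which focuses the spindle poles, stood at 62.4 and 64.6 CPM under VP64-MyoD, 119 and 138 CPM under WT-MyoD and 23.6 and 26.5 CPM in untreated cells. For ASPM the log2 fold change over untreated was 1.34 (SE 0.08, edgeR adjusted p = 1.02e-09) under VP64-MyoD and 2.36 (SE 0.08, edgeR adjusted p = 1.4e-12) under WT-MyoD. TPX2, which switches on AURKA at the spindle, stood at 51.5 and 55.2 CPM in VP64-MyoD libraries and 74.7 and 74.7 CPM in WT-MyoD libraries, against 17.2 and 18.4 CPM in untreated libraries. The rise of TPX2 over untreated was 1.58 (SE 0.07, edgeR adjusted p = 2.61e-11) in log2 units under VP64-MyoD and 2.07 (SE 0.07, edgeR adjusted p = 1.32e-12) under WT-MyoD. HMMR, a spindle protein that also binds hyaluronan, stood at 9.01 and 11.2 CPM under VP64-MyoD, 12.5 and 10.4 CPM under WT-MyoD and 1.13 and 1.51 CPM in untreated cells. ASPM and TPX2 had 3 separate groups, whereas the MyoD groups overlapped for HMMR. HMMR rose over untreated by 2.95 (SE 0.18, edgeR adjusted p = 8.49e-10) on the log2 scale under VP64-MyoD and 3.13 (SE 0.18, edgeR adjusted p = 4.48e-10) under WT-MyoD. These were the highest fold changes of the 51 genes in both comparisons. NUSAP1 and DLGAP5, which bundle and steady spindle microtubules, lay at 15.2 to 17.7 CPM under VP64-MyoD, 19.2 to 23.8 CPM under WT-MyoD and 3.71 to 4.28 CPM in untreated cells.

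Of the 3 cytokinesis genes, all rose with both forms. ANLN (anillin, which links actin and myosin in the contractile ring) stood at 78.4 and 83.8 CPM under VP64-MyoD, 139 and 138 CPM under WT-MyoD and 23.1 and 22 CPM in untreated cells. ANLN stood higher than in untreated cells by 1.84 (SE 0.07, edgeR adjusted p = 1.6e-12) log2 units under VP64-MyoD and 2.62 (SE 0.07, edgeR adjusted p = 4.07e-14) under WT-MyoD. PRC1, which bundles the microtubules of the midzone, stood at 39.1 and 39.2 CPM in VP64-MyoD libraries and 72.4 and 71.7 CPM in WT-MyoD libraries, against 17.6 and 16.8 CPM in untreated libraries. For PRC1 the log2 fold change over untreated was 1.19 (SE 0.07, edgeR adjusted p = 6.67e-10) under VP64-MyoD and 2.06 (SE 0.07, edgeR adjusted p = 9.12e-13) under WT-MyoD. The groups of ANLN and of PRC1 were well apart. ECT2, which switches on the small GTPase RHOA at the division plane, stood at 46.5 and 54.8 CPM under VP64-MyoD, 52.4 and 46.4 CPM under WT-MyoD and 23.2 and 23.4 CPM in untreated cells. Its VP64-MyoD libraries enclosed one of the WT-MyoD libraries, and both forms lay above untreated. The rise of ECT2 over untreated was 1.12 (SE 0.09, edgeR adjusted p = 1.91e-08) in log2 units under VP64-MyoD and 1.09 (SE 0.09, edgeR adjusted p = 3.68e-08) under WT-MyoD.

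**Figure D4:**
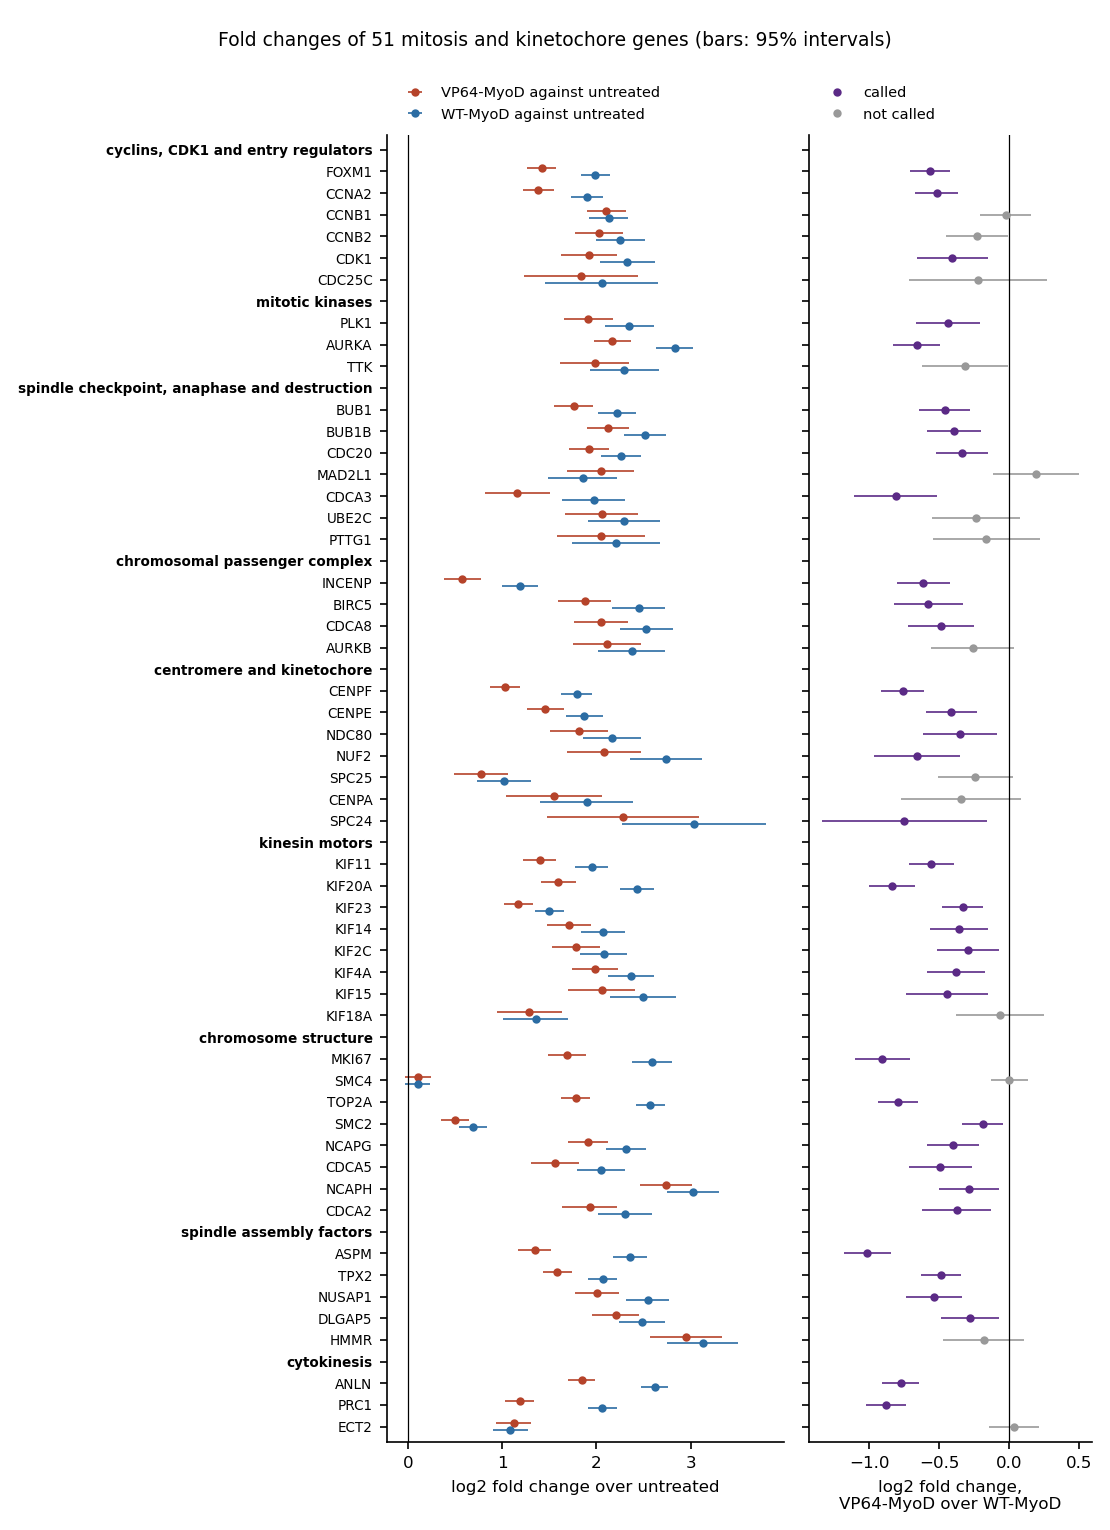
Log2 fold changes of the 51 genes with 95% intervals, for each form of MyoD over untreated on the left and for VP64-MyoD over WT-MyoD on the right, where called genes are purple and the others grey. On the left SMC4 has the only intervals that reach 0, and on the right 37 genes are called, all below 0.

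The direct comparison of the forms, which share vector, selection and doxycycline per the labels, found 0 of 51 genes higher and 37 lower with VP64-MyoD, where 28.7% of all genes were called higher and 28.4% lower. The median log2 fold change of the 51 genes was -0.40, against 0.02 over all genes. For 42 of the 51, both VP64-MyoD libraries lay below both WT-MyoD libraries, as they did for 38.4% of all genes. The differences were modest, with 1 gene called over 2-fold lower, ASPM, where 6.81% of all genes were. Transgene counts and muscle markers also differed between the forms, as given above, and their part in these differences was not tested.

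ASPM, MKI67 and PRC1 had the lowest fold changes between the forms. The log2 fold change of VP64-MyoD over WT-MyoD was -1.01 (SE 0.08, edgeR adjusted p = 2.28e-08) for ASPM, with levels of 62.4 and 64.6 CPM under VP64-MyoD against 119 and 138 CPM under WT-MyoD. For MKI67 it was -0.90 (SE 0.09, edgeR adjusted p = 6.01e-07), with 142 and 144 CPM against 234 and 303 CPM. For PRC1 it was -0.88 (SE 0.07, edgeR adjusted p = 1.65e-08), with 39.1 and 39.2 CPM against 72.4 and 71.7 CPM. The passenger scaffold INCENP differed by -0.61 (SE 0.09, edgeR adjusted p = 2.55e-05), and the transcription factor FOXM1 by -0.57 (SE 0.07, edgeR adjusted p = 3.15e-06). In the same comparison TOP2A had -0.79 (SE 0.07, edgeR adjusted p = 6.89e-08), ANLN -0.77 (SE 0.06, edgeR adjusted p = 4.12e-08) and KIF20A -0.84 (SE 0.08, edgeR adjusted p = 1.86e-07). CENPF had -0.76 (SE 0.07, edgeR adjusted p = 3.03e-07) and AURKA -0.66 (SE 0.08, edgeR adjusted p = 3.1e-06). Other genes given with full statistics over untreated differed less between the forms, such as CDC20 and KIF23. Their mean levels under VP64-MyoD were 0.79 and 0.80 times those under WT-MyoD. By role, the called genes were 2 of 3 in cytokinesis, 7 of 8 kinesins, 7 of 8 chromosome structure genes, 4 of 5 spindle factors, 5 of 7 centromere and kinetochore genes, 3 of 4 passenger genes, 4 of 7 checkpoint and destruction genes, 2 of 3 kinases and 3 of 6 entry regulators.

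The 14 genes not called between the forms were CCNB1, CCNB2, CDC25C, TTK, MAD2L1, UBE2C, PTTG1, AURKB, CENPA, SPC25, KIF18A, SMC4, HMMR and ECT2. Intervals for some of them were narrow around 0. For SMC4 the log2 fold change was 0.00 (SE 0.06, edgeR adjusted p = 0.981), with a 95% interval of -0.13 to 0.14. For CCNB1 it was -0.03 (SE 0.08, edgeR adjusted p = 0.82), with an interval of -0.21 to 0.16, and for ECT2 0.04 (SE 0.08, edgeR adjusted p = 0.732), with -0.14 to 0.22. MAD2L1, the highest of the 51, had 0.19 (SE 0.14, edgeR adjusted p = 0.269) and an interval of -0.11 to 0.50. KIF18A had -0.07 (SE 0.15, edgeR adjusted p = 0.72) and -0.38 to 0.25. Each of these 5 changed sign in at least 1 other way of processing. The other 9 all had negative estimates, from -0.34 for CENPA to -0.16 for PTTG1. Among them, TTK had -0.31 (SE 0.14, edgeR adjusted p = 0.0762) and CCNB2 -0.23 (SE 0.10, edgeR adjusted p = 0.0708), whose unadjusted 95% intervals of -0.62 to -0.01 and -0.45 to -0.01 lay just below 0. AURKB had -0.26 (SE 0.14, edgeR adjusted p = 0.119), SPC25 -0.24 (SE 0.13, edgeR adjusted p = 0.115) and CENPA -0.34 (SE 0.20, edgeR adjusted p = 0.158). HMMR had -0.18 (SE 0.14, edgeR adjusted p = 0.273), UBE2C -0.24 (SE 0.15, edgeR adjusted p = 0.185), PTTG1 -0.16 (SE 0.18, edgeR adjusted p = 0.457) and CDC25C -0.22 (SE 0.23, edgeR adjusted p = 0.436), the last with an interval of -0.72 to 0.27.

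The number of genes called lower between the forms depended on single MyoD libraries, and was 26 without VP64-MyoD replicate 1, 32 without VP64-MyoD replicate 2, 32 without WT-MyoD replicate 1 and 38 without WT-MyoD replicate 2. Without VP64-MyoD replicate 1, the kinesins KIF14, KIF15, KIF2C and KIF4A (edgeR adjusted p = 0.128, 0.0579, 0.152 and 0.0615) and the condensin and chromosome genes NCAPH, SMC2 and CDCA2 (edgeR adjusted p = 0.132, 0.222 and 0.131) lost the call. CDK1, NDC80, SPC24 and DLGAP5 (edgeR adjusted p = 0.135, 0.227, 0.0707 and 0.0797) lost it as well. Without VP64-MyoD replicate 2 it was lost by SPC24, KIF15, KIF2C, NCAPH, SMC2 and DLGAP5 (edgeR adjusted p from 0.0537 to 0.175), and without WT-MyoD replicate 1 by NDC80, SPC24, KIF2C, SMC2 and DLGAP5 (edgeR adjusted p from 0.0596 to 0.252). Without WT-MyoD replicate 2, SPC24 and NCAPH lost it (edgeR adjusted p = 0.0643 and 0.0877), while TTK, CCNB2 and CENPA were called lower (edgeR adjusted p = 0.00268, 0.018 and 0.0206). TTK was also called lower without VP64-MyoD replicate 2 (edgeR adjusted p = 0.0489). All of these fold changes stayed negative.

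Levels of different genes were compared per transcript length. The median level of the 51 genes was 21.1 TPM with VP64-MyoD, 25.9 TPM with WT-MyoD and 5.49 TPM in untreated cells. In WT-MyoD cells SMC4 came first at 118 ± 0.261 TPM, followed by ANLN at 102 ± 1.29, TOP2A at 99.0 ± 2.59, PRC1 at 86.7 ± 1.57 and MKI67 at 78.7 ± 13.5 TPM (SD, n = 2 each). ANLN and TOP2A differed by less than their SDs added together, as did PRC1 and MKI67. In VP64-MyoD cells SMC4 stood at 114 ± 5.90 TPM, ahead of ANLN at 57.5 ± 3.33, TOP2A at 54.8 ± 4.86 and TPX2 at 51.8 ± 3.09 TPM, and the steps between the last 3 were smaller than their SDs added together. In untreated cells the order was SMC4 at 102 ± 4.15 TPM, SMC2 at 20.0 ± 0.879, PRC1 at 19.4 ± 0.838 and ECT2 at 18.1 ± 0.0509 TPM, and SMC2 and PRC1 differed by less than their SDs added together. By mean, the lowest levels were those of SPC24, CDC25C and MAD2L1 in all 3 groups. With VP64-MyoD, MAD2L1 stood at 6.00 ± 1.13 and KIF15 at 6.35 ± 0.121 TPM (SD, n = 2 each). In untreated cells MAD2L1 and KIF15 stood at 1.41 ± 0.177 and 1.46 ± 0.490 TPM (SD, n = 2 each). In both groups these genes differed by less than their SDs added together. The highest level in the set was 66.5 times the lowest with VP64-MyoD, 39.6 times with WT-MyoD and 299 times in untreated cells. For CDK1, CCNB1 and CCNB2 the highest was 2.06 times the lowest with VP64-MyoD, 1.58 times with WT-MyoD and 1.81 times in untreated cells.

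Of the 51 genes, 28 had 1 transcript row and 23 had several, up to 6 for AURKA. ASPM was split into rows with 74.8% and 25.2% of its counts over all libraries, and the largest of 4 CDK1 rows held 58.5%. In 20 of the 23 genes, the share of every row shifted by at most 6.76 percentage points between untreated cells and either MyoD group. It shifted by more in HMMR (14.0 points), CDC25C (12.9 points) and UBE2C (12.5 points), whose smallest group had 122, 44 and 112 counts. How reads shared by several rows were assigned is not given in the sources used here. The authors' deposited table, which lists 3135 transcripts, holds 77 transcripts of 46 of the 51 genes. All 77 have a log2 fold change above 0 for both forms in the authors' deposited table, from 0.64 to 3.95 for VP64-MyoD and from 0.83 to 4.02 for WT-MyoD. The largest adjusted p in the authors' deposited table is 9.95e-06 for VP64-MyoD and 9.82e-06 for WT-MyoD, so it lists only transcripts with a small p in both comparisons, and their common direction is no independent check. CDC25C, CENPA, INCENP, SMC4 and SPC25 have no row there, and may have missed such a limit.

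Other genes of the same processes, from 6 lists of 129 other genes, of which all but PTTG2 could be tested, did not all behave alike. Of 33 other centromere and kinetochore subunits, 27 were higher and 0 lower with VP64-MyoD (median log2 fold change 0.64), and 24 were higher and 1 lower with WT-MyoD (median 0.89). The shares called higher were 81.8% and 72.7%, where 33.3% and 26% of all genes tested were. Between the forms, 4 were higher and 10 lower with VP64-MyoD (median -0.07), and the 30.3% called lower is near the 28.4% of all genes. KNL1, the scaffold that receives the checkpoint proteins, stood at 30.9 and 34.9 CPM under VP64-MyoD, 55.7 and 64.1 CPM under WT-MyoD and 9.49 and 10.4 CPM in untreated cells. HJURP, which loads CENPA, stood at 15.1 and 14.4 CPM in VP64-MyoD libraries and 23.6 and 24.5 CPM in WT-MyoD libraries, against 3.59 and 3.93 CPM in untreated libraries. CENPU, of the inner kinetochore, stood at 14.2 and 15.9 CPM under VP64-MyoD, 14.5 and 12.8 CPM under WT-MyoD and 2.34 and 3.02 CPM in untreated cells. KNL1 and HJURP had 3 separate groups, while the MyoD groups of CENPU overlapped. The log2 fold change over untreated with WT-MyoD was 2.59 (SE 0.10, edgeR adjusted p = 2.58e-12) for KNL1 and 2.68 (SE 0.10, edgeR adjusted p = 4.52e-12) for HJURP, and with VP64-MyoD it was 2.50 (SE 0.14, edgeR adjusted p = 2.4e-10) for CENPU and 1.97 (SE 0.11, edgeR adjusted p = 1.88e-10) for HJURP. SPDL1, which brings dynein to kinetochores, went the opposite way to most with WT-MyoD, at 49.8 and 52.6 CPM under VP64-MyoD, 30.2 and 28.2 CPM under WT-MyoD and 42.0 and 41.0 CPM in untreated cells. Its log2 fold change was 0.30 (SE 0.07, edgeR adjusted p = 0.00138) with VP64-MyoD over untreated, -0.50 (SE 0.07, edgeR adjusted p = 2.37e-05) with WT-MyoD over untreated, and 0.81 (SE 0.07, edgeR adjusted p = 1.13e-07) with VP64-MyoD over WT-MyoD. MIS12, PMF1 and ZWILCH were also higher under VP64-MyoD than under WT-MyoD, by log2 fold changes of 0.22, 0.35 and 0.26.

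Of 15 tested checkpoint, separase and shugoshin genes, 11 were higher and 1 lower with VP64-MyoD (median log2 fold change 1.16), and 12 higher and 1 lower with WT-MyoD (median 1.82). The shares called higher were 73.3% and 80.0%, where 33.3% and 26% of all genes were. The 1 that was lower was WEE1, the kinase that holds CDK1 inactive, at 13.4 and 14.1 CPM under VP64-MyoD, 27.0 and 27.9 CPM under WT-MyoD and 32.4 and 35.5 CPM in untreated cells. WEE1 fell against untreated, with -1.30 (SE 0.08, edgeR adjusted p = 1.56e-09) on the log2 scale under VP64-MyoD and -0.31 (SE 0.08, edgeR adjusted p = 0.00446) under WT-MyoD. CDC25B, a phosphatase that opposes WEE1, stood at 121 and 111 CPM in VP64-MyoD libraries and 190.2 and 190.3 CPM in WT-MyoD libraries, against 51.1 and 52.9 CPM in untreated libraries. CDC25B stood higher than in untreated cells by 1.16 (SE 0.06, edgeR adjusted p = 3.09e-10) log2 units under VP64-MyoD and 1.87 (SE 0.07, edgeR adjusted p = 1.26e-12) under WT-MyoD. TRIP13, which remodels MAD2L1, stood at 20.6 and 19.1 CPM under VP64-MyoD, 20.3 and 18.5 CPM under WT-MyoD and 5.29 and 5.58 CPM in untreated cells. For TRIP13 the log2 fold change over untreated was 1.87 (SE 0.10, edgeR adjusted p = 2.32e-10) under VP64-MyoD and 1.84 (SE 0.10, edgeR adjusted p = 3.6e-10) under WT-MyoD. Between the forms 8 of the 15 (53.3%, against 28.4% of all genes) were lower and 0 higher with VP64-MyoD, with WEE1 at -1.0 (SE 0.08, edgeR adjusted p = 6.21e-08) and CDC25B at -0.71 (SE 0.06, edgeR adjusted p = 1.16e-07). Of 34 other spindle, midbody and late cycle genes, 30 were higher and 2 lower with VP64-MyoD (median 1.47), 31 higher and 3 lower with WT-MyoD (median 2.04), and 3 higher and 26 lower between the forms (median -0.47). The shares were 88.2% higher with VP64-MyoD and 91.2% with WT-MyoD, against 33.3% and 26% of all genes, and 76.5% lower between the forms, against 28.4%. CIT, the citron kinase of the midbody, stood at 59.7 and 61.6 CPM under VP64-MyoD, 187 and 232 CPM under WT-MyoD and 16.8 and 15.3 CPM in untreated cells. Its log2 fold change was 1.92 (SE 0.10, edgeR adjusted p = 7.65e-11) with VP64-MyoD, 3.71 (SE 0.10, edgeR adjusted p = 5.16e-14) with WT-MyoD and -1.79 (SE 0.09, edgeR adjusted p = 1.1e-10) between the forms. LMNB1, the B-type lamin, rose by log2 fold changes of 2.02 with VP64-MyoD and 2.60 with WT-MyoD, and CEP55, a midbody protein, by 2.10 and 2.41. GTSE1, a microtubule-bound protein of G2, differed between the forms by -1.0 (SE 0.09, edgeR adjusted p = 1.84e-07). TMPO, of the nuclear lamina, and SASS6, of the centriole, were lower with both forms, and NEDD1, of the centrosome, was called lower with WT-MyoD and not called with VP64-MyoD, at 44.0 and 43.1 CPM under VP64-MyoD, 28.2 and 28.1 CPM under WT-MyoD and 43.9 and 42.6 CPM in untreated cells. NEDD1 was higher under VP64-MyoD than under WT-MyoD by 0.63 (SE 0.07, edgeR adjusted p = 1.32e-06), as were SASS6 (0.34) and the gamma-tubulin TUBG1 (0.19).

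The complexes that serve other phases as well showed small and mixed differences. Of 17 subunits and partners of the anaphase-promoting complex, 9 were higher and 2 lower with VP64-MyoD (median log2 fold change 0.18), 5 higher and 3 lower with WT-MyoD (median 0.07), and 5 higher and 2 lower between the forms (median 0.12). With VP64-MyoD, 52.9% were higher and 11.8% lower, against 33.3% and 30.3% of all genes. With WT-MyoD, 29.4% were higher, near the 26% of all genes, and between the forms 29.4% were, near 28.7%. UBE2S, the enzyme that extends its ubiquitin chains, and FBXO5, an inhibitor of the complex, rose in both comparisons, by 0.71 and 0.55 with VP64-MyoD and 0.85 and 0.78 with WT-MyoD. FZR1, the activator used after mitosis, and ANAPC2, the scaffold of the catalytic core, fell by 0.42 and 0.33 on the log2 scale with VP64-MyoD. ANAPC1, ANAPC16 and CDC16 were lower with WT-MyoD, with log2 fold changes of -0.19, -0.31 and -0.17. Of 16 cohesin and other condensin genes, 6 were higher and 5 lower with VP64-MyoD (median 0.02), 7 higher and 3 lower with WT-MyoD (median 0.14), and 1 higher and 8 lower between the forms (median -0.14). With VP64-MyoD, 37.5% higher and 31.2% lower are near the 33.3% and 30.3% of all genes. With WT-MyoD, 43.8% were higher, against 26% of all genes, and 50% were lower between the forms, against 28.4%. ESCO2, the acetyltransferase that sets cohesion in S phase, stood apart from them at 5.15 and 5.65 CPM under VP64-MyoD, 8.35 and 9.06 CPM under WT-MyoD and 0.969 and 1.1 CPM in untreated cells. The rise of ESCO2 over untreated was 2.39 (SE 0.17, edgeR adjusted p = 6.36e-09) in log2 units under VP64-MyoD and 3.07 (SE 0.17, edgeR adjusted p = 2.23e-10) under WT-MyoD. The condensin II subunits NCAPG2 and NCAPD3 rose with both forms, by 0.82 and 0.46 with VP64-MyoD and 1.26 and 0.98 with WT-MyoD. NCAPD2, of condensin I, rose with WT-MyoD (0.72 in log2 units, SE 0.06, edgeR adjusted p = 6.87e-08) and was not called with VP64-MyoD (-0.09 in log2 units, SE 0.06, edgeR adjusted p = 0.214). The cohesin regulators PDS5A and MAU2 were lower with both forms, STAG1, NIPBL and the condensin II subunit NCAPH2 with VP64-MyoD, and ESCO1 with WT-MyoD, all by under 2-fold, and ESCO1 was the 1 gene higher between the forms (0.43 in log2 units, SE 0.09, edgeR adjusted p = 0.000961).

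Of 13 genes of the DREAM and MuvB complexes, 5 were higher and 2 lower with VP64-MyoD (median log2 fold change 0.05), 4 higher and 1 lower with WT-MyoD (median 0.13), and 2 higher and 6 lower between the forms (median -0.14). The 38.5% and 30.8% called higher are near the 33.3% and 26% of all genes, and 46.2% were lower between the forms, against 28.4%. MYBL2, which joins MuvB to switch these genes on, stood at 17.7 and 20.3 CPM under VP64-MyoD, 20.9 and 21.0 CPM under WT-MyoD and 3.63 and 3.11 CPM in untreated cells. MYBL2 rose over untreated by 2.49 (SE 0.12, edgeR adjusted p = 3.21e-11) on the log2 scale under VP64-MyoD and 2.63 (SE 0.12, edgeR adjusted p = 2.04e-11) under WT-MyoD. RBL1, the p107 subunit that joins DREAM in repression, stood at 11.6 and 12.3 CPM in VP64-MyoD libraries and 19.8 and 24.3 CPM in WT-MyoD libraries, against 9.93 and 9.51 CPM in untreated libraries. RBL1 stood higher than in untreated cells by 0.30 (SE 0.11, edgeR adjusted p = 0.0265) log2 units under VP64-MyoD and 1.18 (SE 0.11, edgeR adjusted p = 1.58e-07) under WT-MyoD. RBL2 (p130) and E2F4, the usual repressors of resting cells, were lower with VP64-MyoD than in untreated cells, with log2 fold changes of -0.38 (SE 0.06, edgeR adjusted p = 6.19e-05) and -0.37 (SE 0.07, edgeR adjusted p = 0.000306), and were not called with WT-MyoD, at -0.04 (SE 0.06, edgeR adjusted p = 0.673) and -0.14 (SE 0.07, edgeR adjusted p = 0.125). LIN37, a MuvB subunit, was lower with WT-MyoD (-0.47 in log2 units, SE 0.15, edgeR adjusted p = 0.0184). TFDP1 rose with WT-MyoD (0.33 in log2 units, SE 0.06, edgeR adjusted p = 0.000241), and RBBP4 and LIN37 were higher under VP64-MyoD than under WT-MyoD, by 0.22 and 0.44.

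**Figure D5:**
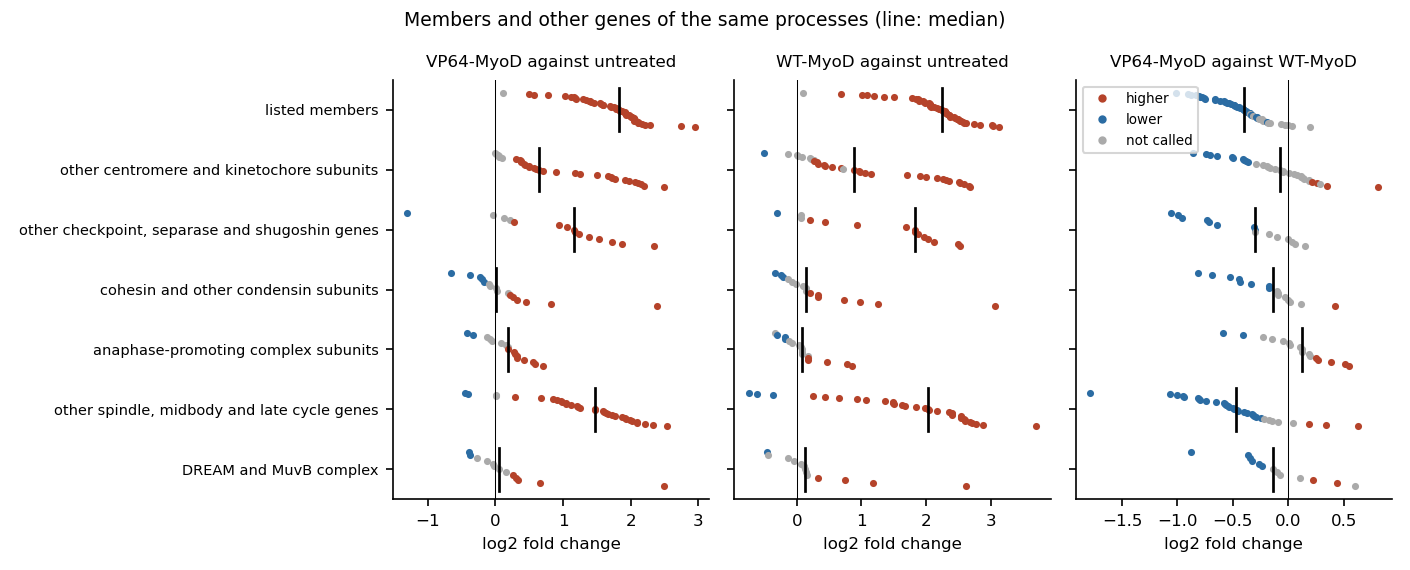
Log2 fold changes of the 51 listed genes and of 6 lists of related genes, 1 point per gene and a line at the median, with higher genes red, lower genes blue and uncalled genes grey, for VP64-MyoD over untreated, WT-MyoD over untreated and VP64-MyoD over WT-MyoD. The medians of the late cycle and checkpoint lists lie at 1.47 and 1.16 with VP64-MyoD and at 2.04 and 1.82 with WT-MyoD, and those of the anaphase-promoting complex, cohesin and DREAM lists at 0.18 or less.

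Near-identical copies could share reads with a few of the genes. AURKA and KIF4A match the copies AURKAP1 and KIF4B, which had 42 counts each over all 6 libraries, and CDC20 and MAD2L1 match pseudogenes that have no row in the count table. Of the 51 genes, 18 overlap an exon of a gene on the opposite strand, 13 of them one that was counted, with the longest overlaps in NCAPG (1631 bases with LCORL), SMC4, and FOXM1 (781 bases with ITFG2). The libraries do not mark the strand, so reads of such overlaps cannot be told apart.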

How the data were processed

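Polyadenylated RNA was read from 6 libraries cut and tagged by a transposase, so strand is not marked. The submitters' processing notes name the hg19 build, Bowtie 0.12.9, CASAVA and DESeq 1.10.1. The deposited table holds whole-number counts per RefSeq transcript, not normalized, and every count is even; whether each read pair was counted as 2 is not given in the sources used here. A second table, deposited by the authors, gives per the file headers a signal per group (mean of counts over size factors), a log2 fold change, the fold as a linear ratio, and p-values. It was compared for sign and entered no test.

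Of 40710 rows, 39320 were named through a RefSeq gene table by accession, 521 through GENCODE 29, 1 is the transgene and 868 (0.601% to 0.744% of the counts of a library) were left out. Rows were summed per symbol. All 6 libraries entered 1 edgeR 4.0.16 quasi-likelihood fit in R 4.3.3 with TMM, filterByExpr (count 10, total 15) and two-sided tests. All 51 genes passed that filter. Levels are TMM-scaled CPM, a standard error is the size of the log2 fold change divided by the root of edgeR's F, and the 95% intervals are not adjusted for the number of genes. TPM used GENCODE 29 lengths of rows that held 95.5% to 96.4% of the counts, 93 of the 95 rows among them; the 2 CDK1 rows without one took that gene's median. Copies were sought with BLAST 2.17.0 (at least 95% identity over 200 bases). The fit was tested on simulated counts.

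The 51 genes, the lists and the tests were chosen with earlier results of these data known, so no list has a test of its own. Genes with full statistics are, per role, the 2 of highest mean CPM (3 in roles of 7 or more), and, in each comparison, the 3 genes highest and the 3 lowest by fold change and all uncalled genes. In each other list they are the 2 with the smallest adjusted p per comparison and any called against the list's direction. Between the forms, full statistics are printed for only part of the per-role genes, mostly those with larger differences. Alternatives were DESeq2 1.42.0, limma-voom (3.58.1), other scalings, filters and gene summaries, a replicate block, 2-group fits and leaving out each library. With a single fibroblast line, p-values reflect only the spread among its cultures. The fit shares each gene's spread over all groups, though the replicates did not agree equally well. Over tested genes, their chi-square per degree of freedom was 13.2 with WT-MyoD, 5.77 with VP64-MyoD and 3.36 in untreated cells.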

Additional observations from a re-analysis of the deposited data

How the results depend on the processing

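Against untreated cells, 50 genes were called higher with each form under every alternative run, except that a fit of the VP64-MyoD and untreated libraries alone called 51. No fold change of the 51 genes over untreated changed sign or lost its call. The median log2 fold change with 1 library left out lay between 1.74 and 1.89 with VP64-MyoD and between 2.15 and 2.29 with WT-MyoD, the lowest without WT-MyoD replicate 1. Between the forms, 35 to 38 genes were called lower under the other 10 alternatives and 26 to 38 with 1 library left out, with a median of -0.48 to -0.36, and 25 of the 37 kept the call in all 16. Scaled by library total in place of TMM, the summed level moved to 1674 CPM for VP64-MyoD replicate 2, 2341 CPM for WT-MyoD replicate 1, and 587 and 596 CPM in untreated cells.

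Between the forms, 5 uncalled genes changed sign. With 1 library left out, the log2 fold change lay between -0.0414 and 0.0445 for SMC4, -0.134 and 0.0802 for CCNB1, -0.186 and 0.0410 for KIF18A, -0.0875 and 0.150 for ECT2 and -0.0044 and 0.363 for MAD2L1. SMC4 also stood at -0.0059 with RLE size factors, -0.0058 with DESeq2 and -0.0032 in the fit of both forms alone. The cause was not tested.

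The replicate numbers did not pair the libraries (correlations of deviations -0.03, 0.0015 and 0.06). With the replicate block, 50 genes were called higher with each form over untreated and 37 lower between the forms, with medians of 1.83, 2.26 and -0.41.

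Depth limits SPC24 most, with a halved count of 11 in both untreated libraries together, and 2 libraries per group limit every test. Since the lists were chosen with results known, their counts describe these libraries and support no inference beyond them.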
